A study of Mus musculus with 6 samples.

Results

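The genes described here encode 2 mainly mitochondrial pathways that burn fuel to carbon dioxide, fatty acid oxidation (18 genes) and the tricarboxylic acid (TCA) cycle with its entry enzyme pyruvate dehydrogenase (17 genes). Ehhadh and Acaa1a act in peroxisomes and Mdh1 in the cytosol. Members were taken by their GENCODE symbol from 49585 gene identifiers counted in each library. All 35 were found, and all 35 passed the filter on low counts that left 13759 genes for testing. RNA came from tumoroids, cultures of intestinal adenoma cells grown in Matrigel drops, from C57BL/6 mice. Both groups, of 3 libraries each, carried APC min/+ (the Min mutation in a copy of Apc) and Villin-Cre, a Cre recombinase that the Villin promoter drives in gut epithelium. The knock-out was IKKa FL/FL and the wild type IKKa +/+, IKKa being the kinase encoded by Chuk. All cultures received the same medium with R-spondin, Noggin, EGF, basic FGF and the ROCK inhibitor Y27632. The libraries are described as biological replicates, with no word on separate mice or cultures. P-values therefore reflect the spread between libraries alone, and that spread may be technical. The ages of the mice and the time in culture are not given in the labels.

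Fatty acids enter mitochondria as carnitine esters and are then shortened in repeated rounds of dehydrogenation, hydration, a further dehydrogenation and thiolysis, each round releasing acetyl-CoA. The TCA cycle oxidises that acetyl-CoA, together with the acetyl-CoA that pyruvate dehydrogenase makes from glycolytic pyruvate, and passes the electrons to the respiratory chain. Fatty acid oxidation is known as a fuel of intestinal crypt cells, and its genes respond to the PPAR family of nuclear receptors.

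Library totals ran from 20749747 to 31875723 counts. Chuk itself stood at 28.9, 24.4 and 34.9 CPM in the knock-out and 101, 106 and 95.8 CPM in the wild type (CPM, each count scaled by its library's TMM-adjusted total, in the order replicate 1, 2, 3 throughout), with no overlap between the genotypes. Counts per gene do not separate floxed from other exons. Knock-out replicate 2 stood apart from its group, with a chi-square per degree of freedom of 36.4 and 37.0 against the other knock-out libraries and 5.64 between those. Transcripts of the mitochondrial genome took 2.15% to 3.46% of the knock-out counts and 6.18% to 7.58% of the wild-type counts. The 12 intestinal epithelium markers summed to 12442 to 14477 CPM in the knock-out and 11282 to 12002 CPM in the wild type. Of these markers 6 fell (50%, against 27.0% of all genes tested) and 4 rose (33.3%, against 30.4%). Krt8, Krt18 and Krt19 rose and hold most of the knock-out sum. Krt20 had the largest rise on the list, 12.6-fold, at 20.5 to 29.2 CPM in the knock-out and 0.727 to 2.41 CPM in the wild type. Epcam fell 2.22-fold and Vil1 fell 1.85-fold. The intestinal homeobox gene Cdx1 was at 0 in every knock-out library and at 6.21 to 6.6 CPM in the wild type, and Cdx2 had 20.7, 21.8 and 19.2 CPM in the knock-out and 192, 183 and 204 CPM in the wild type. Fibroblast markers summed to at most 1.05 CPM in any library, and 5 of 10 were at 0 in all, Col3a1 and Dcn among them. Of 12 immune markers 7 were at 0 in all libraries. Their sum was 23.1 to 23.7 CPM in the knock-out and 3.72 to 6.98 CPM in the wild type, mostly from Cd68 and Csf1r, while the pan-leukocyte gene Ptprc did not exceed 0.549 CPM. The 6 endothelial markers summed to 0.678 to 1.23 CPM in the knock-out and 17.6 to 23.3 CPM in the wild type through Tek and Vwf, with Cdh5 at most 0.149 CPM. The part of the mitochondrial share and of these markers in the results below was not tested.

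The comparison asks how the genes of the 2 pathways differed between tumoroids without and with an intact Chuk gene. The TCA cycle genes were lower in the knock-out almost throughout, while the fatty acid oxidation genes went both ways. Of the 17 TCA cycle genes 14 fell, 0 rose and 3 did not pass the test (quasi-likelihood test of edgeR, with p adjusted over all genes by the Benjamini-Hochberg method and a threshold of 0.05). Over all 13759 genes, 27.0% were called lower and 30.4% higher. The count of TCA cycle genes called higher was also 0 at an unadjusted p under 0.05, and 0 with DESeq2 and with limma voom. Of the 18 fatty acid oxidation genes 4 rose, 7 fell and 7 did not pass. Without knock-out replicate 2, the library that stood apart, 15 TCA cycle genes were called lower and 0 higher, and 5 fatty acid oxidation genes were called higher and 9 lower. More genes were called in that fit as a whole, 8899 of 14459 tested against 7896 of 13759 with all libraries. The median log2 fold change (knock-out minus wild type) was -0.53 for the TCA cycle genes and -0.15 for the fatty acid oxidation genes, against 0.0022 for all genes tested. In a bulk sample, fewer cells of a type and less RNA per cell cannot be told apart.

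**Figure D1:**
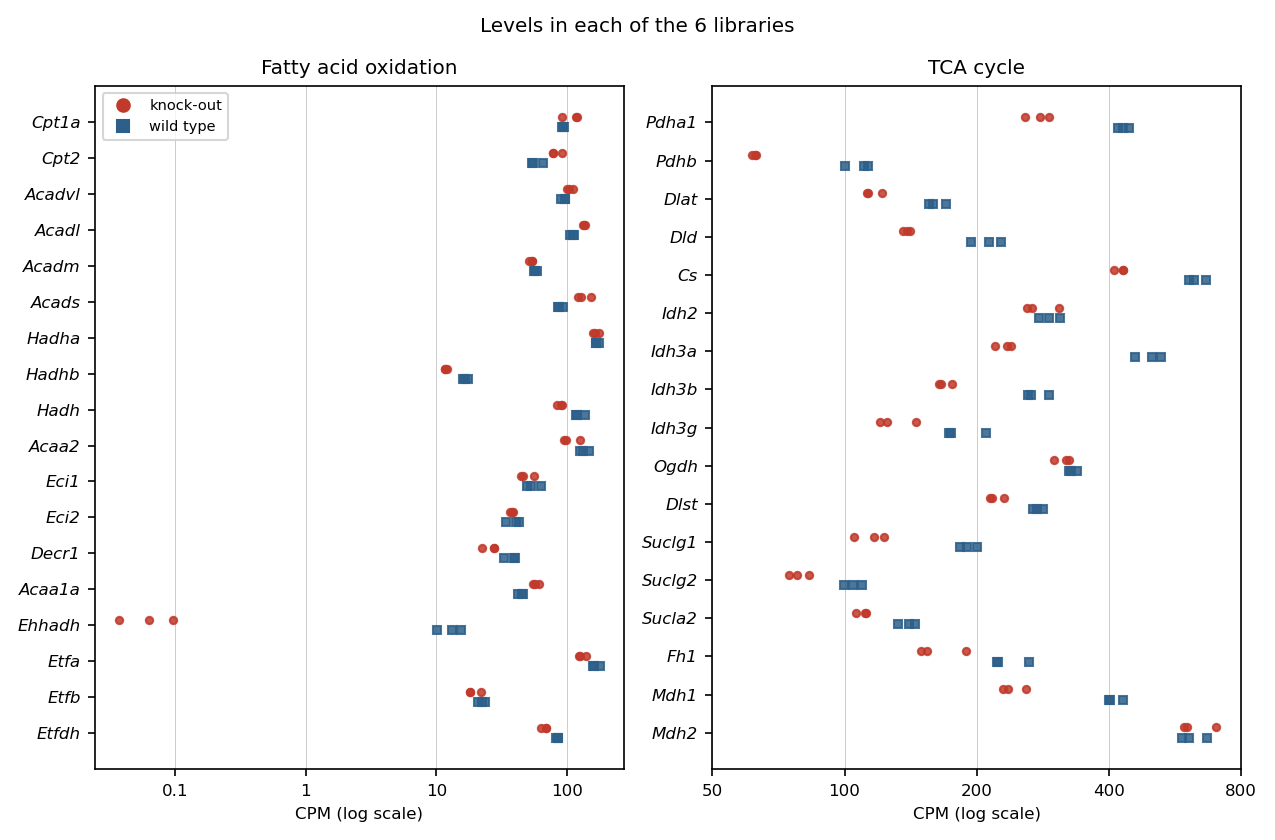
Levels of the 35 genes in each library, in CPM on a log axis (x) by gene (y), with red circles for the 3 knock-out and blue squares for the 3 wild-type libraries. The blue squares lie to the right of the red circles without overlap for 14 of the 17 TCA cycle genes, and Ehhadh is the gene whose groups lie farthest apart.

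Summed over members, the TCA cycle genes took 3575 to 3872 CPM in the knock-out libraries and 4944 to 5359 CPM in the wild-type libraries, with no overlap. The sums for fatty acid oxidation were 1338 to 1444 CPM and 1363 to 1482 CPM, which overlapped. Lack of overlap on its own was common, at 63.1% of all genes tested, 32.7% higher and 30.4% lower in the knock-out. Among the members it was found for 14 TCA cycle genes, all lower, and for 12 fatty acid oxidation genes, 5 higher and 7 lower. The sizes were small for most members. A called fall of at least 2-fold was found for Ehhadh and Idh3a only, among 35 members, against 9.83% of all genes. A called rise of at least 2-fold was found for 15.2% of all genes and for 0 members.

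**Figure D2:**
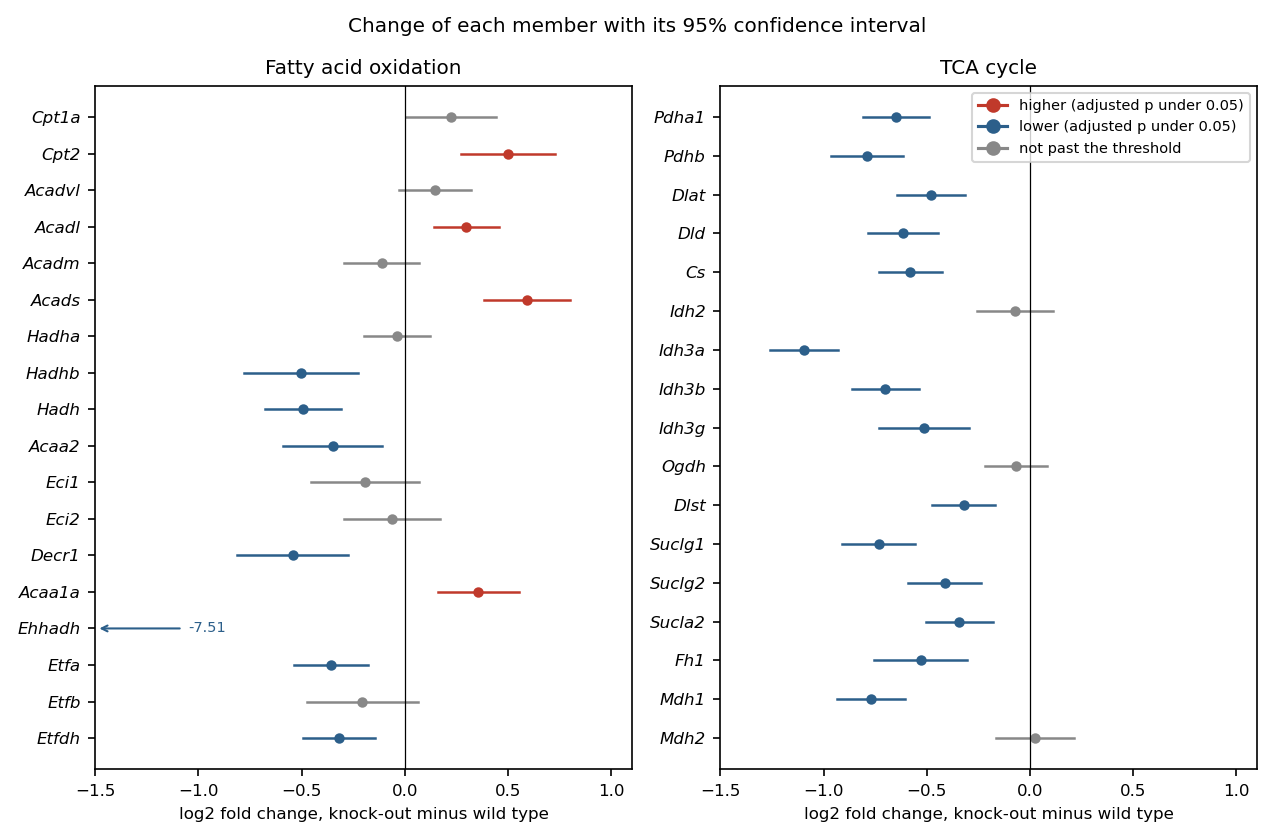
Log2 fold change of each gene (x, knock-out minus wild type) with its 95% confidence interval as a line, in red where called higher, blue where called lower and grey where not past the threshold. TCA cycle intervals lie left of 0 except for Idh2, Ogdh and Mdh2, and Ehhadh at -7.51 lies outside the axis.

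Carnitine entry and the acyl-CoA dehydrogenases, which take up the fatty acid and start each round, held 3 of the 4 rises in the pathway. Cpt1a, the outer-membrane carnitine palmitoyltransferase that limits the rate of entry, had 119, 92.1 and 116 CPM in the knock-out and 91.6, 93.3 and 95.8 CPM in the wild type (adjusted p = 0.0722). Knock-out replicate 2 lay within the wild-type range, the other knock-out libraries above it. Without that library Cpt1a passed the test, with a log2 fold change of 0.31 (adjusted p = 0.00121). Cpt2, which returns the acyl group to coenzyme A inside the mitochondrion, rose 1.42-fold. Its libraries stood at 77.6, 90.9 and 77.9 CPM in the knock-out and 53.9, 65.9 and 54.6 CPM in the wild type, with no overlap (log2 fold change 0.50, SE 0.10, adjusted p = 0.00129).

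The 4 acyl-CoA dehydrogenases divide the work by chain length. Acads, for short chains, rose 1.51-fold, the largest rise among the members. Its libraries stood at 121, 152 and 127 CPM in the knock-out and 85.4, 86.7 and 92.9 CPM in the wild type, and the lowest knock-out library lay above the highest wild-type library (log2 fold change 0.59, SE 0.10, adjusted p = 1.9e-04). Acadl, for long chains, rose 1.23-fold, at 138, 134 and 132 CPM in the knock-out and 105, 113 and 110.5 CPM in the wild type (log2 fold change 0.30, SE 0.07, adjusted p = 0.00372). The other two did not pass the test. Acadvl, for very long chains, had 105 ± 5.89 against 94.3 ± 3.75 CPM (mean ± SD, n = 3 each, adjusted p = 0.133, 95% interval of the log2 fold change -0.03 to 0.32). Acadm, for medium chains, had 53.1 ± 1.68 against 57.4 ± 1.86 CPM (adjusted p = 0.273, interval -0.29 to 0.07). Summed over the 4 genes the level was 413 to 451 CPM in the knock-out and 343 to 360 CPM in the wild type.

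Of the 4 genes of the later steps of the round, 3 fell and 0 rose. Hadh, the dehydrogenase for medium and short chains, fell 1.41-fold. Its libraries stood at 84.3, 91.5 and 90.6 CPM in the knock-out and 119.8, 118 and 137 CPM in the wild type, without overlap (log2 fold change -0.49, SE 0.09, adjusted p = 3.4e-04). Acaa2, the mitochondrial thiolase that releases acetyl-CoA, fell 1.27-fold at 95.3, 125 and 98.5 CPM in the knock-out and 133, 125 and 148 CPM in the wild type (adjusted p = 0.016). Its groups overlapped, because knock-out replicate 2 reached the lowest wild-type library. The call was lost without knock-out replicate 1 (adjusted p = 0.0768), knock-out replicate 3 (0.0701) or wild-type replicate 3 (0.0761).

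Hadha and Hadhb encode the alpha and beta subunits of the mitochondrial trifunctional protein, which carries out the last 3 steps on long chains. They lie head to head on chromosome 5, Hadha on the minus strand (30118304 to 30155162) and Hadhb on the plus strand (30155248 to 30184593). The GENCODE gene models leave a gap of 85 bases, which is shown because both genes are transcribed away from it (RefSeq, GRCm38.p6, chr5:30155163-30155247, plus strand, no capitals because no searched motif lies in it).
Hadha-Hadhb gap: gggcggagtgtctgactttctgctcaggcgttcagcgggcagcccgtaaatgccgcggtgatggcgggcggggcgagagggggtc
Hadha did not pass the test, at 159, 176 and 163 CPM in the knock-out and 168, 168 and 177 CPM in the wild type (adjusted p = 0.69, interval of the log2 fold change -0.20 to 0.12). Hadhb fell 1.42-fold, at 11.6, 12.2 and 11.7 CPM in the knock-out and 17.5, 16.0 and 16.5 CPM in the wild type, with no overlap (log2 fold change -0.50, SE 0.13, adjusted p = 0.0047). The intervals of the neighbours do not meet, the one for Hadhb being -0.78 to -0.22. Per kilobase of merged exons Hadhb stood at 2.53 CPM and Hadha at 19.5 CPM in the wild type. How the counting treated reads that map to several places is not given in the sources used here, and its part in the low level of Hadhb was not tested.

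Of the auxiliary enzymes, which prepare unsaturated fatty acids for the round, Decr1, a dienoyl-CoA reductase, fell 1.46-fold. It had 27.7, 27.8 and 22.2 CPM in the knock-out and 39.7, 33.1 and 39.9 CPM in the wild type, without overlap (adjusted p = 0.00229). The enoyl-CoA isomerases Eci1 and Eci2 did not pass. Eci1 had 48.7 ± 6.19 against 55.5 ± 7.45 CPM (adjusted p = 0.19) and fell only when knock-out replicate 2 was left out (log2 fold change -0.33, adjusted p = 0.0104). Eci2 had 37.7 ± 0.822 against 39.3 ± 4.69 CPM (adjusted p = 0.641), and its neighbouring copy Eci3 was near 0 in all libraries.

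The electron transfer flavoprotein collects the electrons of all acyl-CoA dehydrogenases and hands them to the ubiquinone pool. Etfa, its alpha subunit, fell 1.28-fold at 123, 139 and 126 CPM in the knock-out and 160.2, 158 and 178 CPM in the wild type (log2 fold change -0.36, SE 0.08, adjusted p = 0.00243). Etfdh, the oxidoreductase that receives the electrons, fell 1.25-fold at 69.2, 63.4 and 69.7 CPM in the knock-out and 84.7, 82.5 and 85.1 CPM in the wild type (adjusted p = 0.00445). In both genes all knock-out libraries lay below all wild-type libraries. Etfb, the beta subunit, had 19.4 ± 2.15 against 22.3 ± 1.19 CPM and did not pass (adjusted p = 0.173), except without knock-out replicate 2 (log2 fold change -0.32, adjusted p = 0.027). Etfb overlaps another annotated protein-coding gene, Gm45233, on the same strand, and how reads in shared stretches were counted is not given in the sources used here.

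Among the peroxisomal enzymes was the largest change of all members. Ehhadh, the peroxisomal bifunctional enzyme that combines hydratase and dehydrogenase activity (ENSMUSG00000022853, GRCm38 chromosome 16, 21761287 to 21787807, minus strand), had 2, 1 and 3 counts in the knock-out libraries and 393, 210 and 417 in the wild-type libraries. That is 0.0632, 0.0375 and 0.0969 CPM in the knock-out and 13.2, 10.2 and 15.5 CPM in the wild type. Pooled over libraries, 6 counts stood against 1020, a ratio of 196 with an exact 95% interval of 89.8 to 536 that covers counting error only. The fitted log2 fold change was -7.51 (SE 1.03, adjusted p = 3.4e-10). The 250 bases before its RefSeq start site are shown because no other member changed by as much (GRCm38.p6, chr16:21787835-21788084, minus strand). Capitals mark a CCAAT box, read on the other strand, 38 bases before the start.
Ehhadh upstream: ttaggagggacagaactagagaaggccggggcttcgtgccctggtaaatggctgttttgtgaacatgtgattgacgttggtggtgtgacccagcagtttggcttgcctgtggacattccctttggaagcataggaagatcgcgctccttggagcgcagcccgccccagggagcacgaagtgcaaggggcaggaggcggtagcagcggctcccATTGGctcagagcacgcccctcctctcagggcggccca
Acaa1a, a peroxisomal thiolase, moved in the other direction. It rose 1.28-fold, at 56.5, 60.6 and 54.6 CPM in the knock-out and 45.3, 42.1 and 46.5 CPM in the wild type (adjusted p = 0.00452), with no overlap. Its close copy Acaa1b rose as well, with 5 counts over the wild-type libraries and 557 over the knock-out libraries. Scaled to depth, that is 96.5-fold (exact 95% interval for counts 41.1 to 298). Reads may be split between the copies, so each value is uncertain, but their summed level was 60.7 to 67.0 CPM in the knock-out and 42.1 to 46.6 CPM in the wild type. Acaa1a also overlaps Myd88 on the opposite strand, and the strand setting of the counting is not given in the sources used here.

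In the TCA cycle, all 3 genes particular to pyruvate dehydrogenase in the set fell, as did the shared Dld. The complex joins a pyruvate-cleaving E1 (Pdha1 and Pdhb), an acetyl-transferring E2 (Dlat) and the lipoamide dehydrogenase E3 (Dld), which also serves oxoglutarate dehydrogenase. Pdha1 fell 1.57-fold, at 292, 257 and 278 CPM in the knock-out and 445, 419.9 and 431 CPM in the wild type (log2 fold change -0.65, SE 0.07, adjusted p = 1.1e-05). Pdhb fell 1.73-fold, at 61.4, 62.8 and 62.6 CPM in the knock-out and 100.3, 113 and 110.5 CPM in the wild type (log2 fold change -0.79, SE 0.08, adjusted p = 3.9e-06). The lowest wild-type library of each lay well above the highest knock-out library, and the ratio of the E1 subunits per kilobase overlapped between genotypes (4.58 ± 0.341 in the knock-out, 4.16 ± 0.386 in the wild type). Dlat fell 1.4-fold to 116 ± 5.05 CPM (adjusted p = 1.6e-04). Dld fell 1.53-fold, at 136, 138 and 141 CPM in the knock-out and 227, 194 and 214 CPM in the wild type (adjusted p = 2.8e-05).

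The upstream sequences of the E1 pair are shown because the subunits fell together from different chromosomes (RefSeq, GRCm38.p6, both on the minus strand, chrX:160138431-160138680 and chr14:8173026-8173242, with bases inside the GENCODE gene left out). Capitals mark CCAAT boxes, read on the other strand.
Pdha1 upstream: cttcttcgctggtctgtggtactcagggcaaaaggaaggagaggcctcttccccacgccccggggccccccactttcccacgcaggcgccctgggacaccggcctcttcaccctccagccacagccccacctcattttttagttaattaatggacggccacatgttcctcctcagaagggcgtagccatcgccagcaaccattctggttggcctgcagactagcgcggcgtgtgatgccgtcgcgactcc
Pdhb upstream: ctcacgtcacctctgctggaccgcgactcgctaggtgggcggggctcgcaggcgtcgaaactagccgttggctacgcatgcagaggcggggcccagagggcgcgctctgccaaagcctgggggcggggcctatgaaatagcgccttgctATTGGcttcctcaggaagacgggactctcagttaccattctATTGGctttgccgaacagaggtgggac
The printed Pdhb sequence holds 2 such boxes, 101 and 60 bases before the start, and the Pdha1 sequence none. A further Pdhb box lies 12 bases before the start, in the stretch left out.

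Promoter windows of 300 bases (250 before and 50 after a RefSeq start) were at hand for 32 of the 35 genes and were searched on both strands for the letters of 6 motifs. The CCAAT box was found in 17 of the 32 genes (53.1%) and in 37.4% of 32851 windows of all genes. The NRF1 letters (GCGCA, any base, GCGC) were found in 4 of 32 (Dld, Etfb, Etfdh and Sucla2) and in 4.60% of all windows. The ETS letters CCGGAAGT were found in 2 (Cpt2 and Dlst) and in 3.89% of all windows. The PPAR direct repeat (a pair of AGGTCA copies with any 1 base between), the ERR letters TCAAGGTCA and the HNF4 letters CAAAGTCCA were in no member window, and in 0.0396%, 0.423% and 0.475% of all windows. The ERR letters and the direct repeat share the half-site AGGTCA. No match says only that these letters are not in these windows. Several members have more than 1 window, and a member was counted where any of its windows matched. The median GC content of the 250 upstream bases was 59.6% in member windows and 52.4% in all windows, and its part in these shares was not tested.

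Cs, citrate synthase, which condenses acetyl-CoA with oxaloacetate, fell 1.49-fold. Its libraries stood at 430.2, 432 and 410.3 CPM in the knock-out and 627, 609 and 665 CPM in the wild type, with no overlap (log2 fold change -0.58, SE 0.07, adjusted p = 1.8e-05). Its retrogene copy Csl was near 0 in every library.

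The isocitrate dehydrogenases of the set divided by enzyme. Idh3a, the catalytic subunit of the NAD-dependent enzyme of the cycle (ENSMUSG00000032279, GRCm38 chromosome 9, 54586334 to 54604661, plus strand), had the largest fall among the TCA cycle genes. It stood at 235, 239.6 and 221 CPM in the knock-out and 501, 458 and 525 CPM in the wild type, so the wild-type level was 2.13-fold the knock-out level (log2 fold change -1.09, SE 0.08, adjusted p = 1.3e-07). The other subunits of the same enzyme fell by less. Idh3b fell 1.63-fold, at 164, 175 and 166 CPM in the knock-out and 262, 266 and 293 CPM in the wild type (adjusted p = 6.1e-06). Idh3g fell 1.43-fold, at 125, 146 and 120.2 CPM in the knock-out and 175, 173 and 210.3 CPM in the wild type (adjusted p = 8.4e-04). The 95% interval of Idh3a, -1.26 to -0.93, does not meet those of Idh3b (-0.86 to -0.54) and Idh3g (-0.73 to -0.30). The per-kilobase ratio of Idh3a to Idh3g was 1.42 ± 0.0993 in the wild type and 0.951 ± 0.0674 in the knock-out, without overlap. Idh3b overlaps Nop56 on the opposite strand, so its count is uncertain if strand was not used. Idh2, the mitochondrial NADP-dependent enzyme, had 267, 308 and 260.4 CPM in the knock-out and 277, 292 and 309.6 CPM in the wild type and did not pass (adjusted p = 0.488, interval -0.25 to 0.11). Without knock-out replicate 2 it was called lower at a log2 fold change of -0.18 (adjusted p = 0.0283).

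Of the 2 genes particular to oxoglutarate dehydrogenase in the set 1 fell, as did the shared Dld given above. Ogdh, its E1 subunit, did not pass, at 325, 300.3 and 319 CPM in the knock-out and 328, 325 and 338 CPM in the wild type (adjusted p = 0.418, interval -0.22 to 0.08). Dlst, its succinyl-transferring E2 subunit, fell 1.25-fold, at 217, 231 and 214 CPM in the knock-out and 269, 283 and 275 CPM in the wild type (log2 fold change -0.32, SE 0.07, adjusted p = 0.00175). All knock-out libraries of Dlst lay below the wild type, while those of Ogdh overlapped it.

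Succinyl-CoA synthetase pairs the common alpha subunit Suclg1 with a beta subunit that sets the nucleotide, Sucla2 for ATP and Suclg2 for GTP. All 3 fell without overlap. Suclg1 fell 1.66-fold, at 117, 123 and 105 CPM in the knock-out and 183, 189.6 and 201 CPM in the wild type (log2 fold change -0.73, SE 0.08, adjusted p = 8.9e-06). Suclg2 fell 1.33-fold to 78.5 ± 4.0 CPM (adjusted p = 7.9e-04) and Sucla2 fell 1.27-fold to 109.8 ± 2.87 CPM (adjusted p = 0.00171). The ratio of the beta subunits per kilobase, Sucla2 to Suclg2, was 1.62 ± 0.0929 in the knock-out against 1.54 ± 0.0101 in the wild type. The lowest knock-out library (1.555) lay just above the highest wild-type library (1.554).

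Fh1, fumarase, fell 1.44-fold. It stood at 154, 189 and 149 CPM in the knock-out and 224, 223 and 263 CPM in the wild type (log2 fold change -0.53, SE 0.10, adjusted p = 8.5e-04), with knock-out replicate 2 the highest of its group and still below the wild type. The malate dehydrogenases differed by compartment. Mdh1, the cytosolic enzyme of the malate-aspartate shuttle, fell 1.71-fold, at 236, 259 and 229 CPM in the knock-out and 403, 401 and 432 CPM in the wild type (log2 fold change -0.77, SE 0.07, adjusted p = 2.7e-06). Mdh2, the mitochondrial enzyme that closes the cycle, had 594, 703 and 602 CPM in the knock-out and 586, 609 and 669 CPM in the wild type (adjusted p = 0.822, interval -0.16 to 0.21). Its fitted sign was positive but turned under upper-quartile scaling (-0.028) and without knock-out replicate 2 (-0.083) or wild-type replicate 1 (-0.017). The ratio of Mdh2 to Mdh1 per kilobase was 1.89 ± 0.0701 in the knock-out against 1.09 ± 0.0350 in the wild type.

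**Figure D3:**
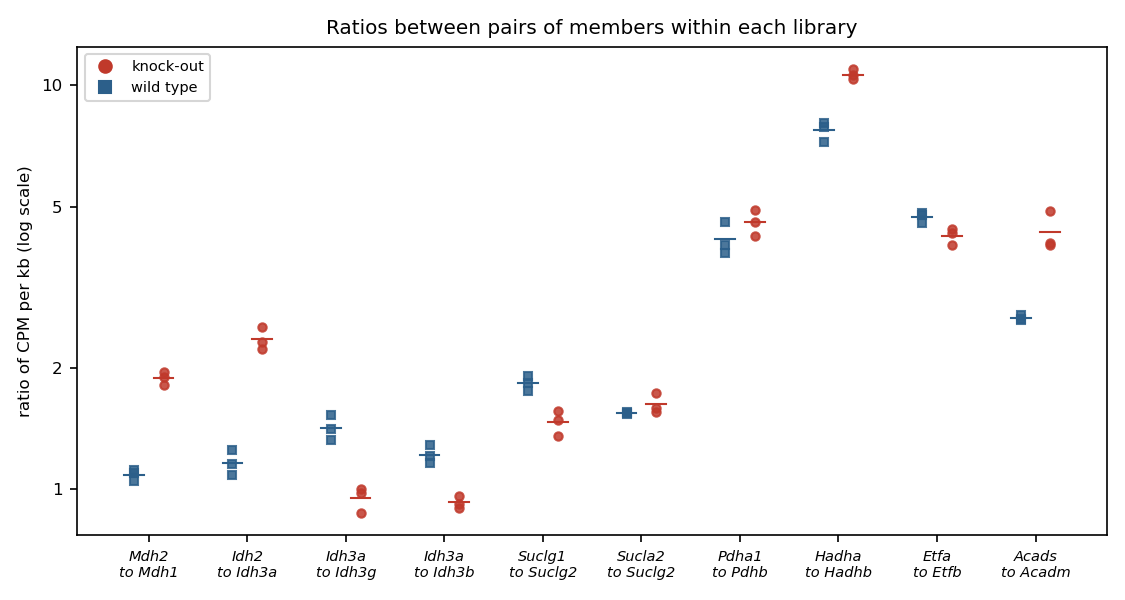
Ratio of CPM per kilobase of merged exons between pairs of members (x) on a log axis (y), with red circles for knock-out and blue squares for wild-type libraries and a line at each mean. The ratio of Mdh2 to Mdh1 is higher in every knock-out library, that of Idh3a to Idh3g lower in each, and that of Pdha1 to Pdhb overlaps.

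Ranked by level per kilobase of merged exons, which lets genes of different length be compared, the wild-type TCA cycle ran from Mdh2 (175 CPM per kb), Mdh1 (160.4), Pdha1 (116), Idh2 (113) and Cs (109.6) down to Suclg2 (22.6). Idh3a stood at rank 6 of 17 in the wild type and at rank 10 in the knock-out, and Ogdh at rank 10 and rank 6. In fatty acid oxidation the order began with Etfa (90.2 CPM per kb), Acaa2 (89.2), Acadl (54.8) and Acads (38.9) in both genotypes. It ended with Ehhadh (4.34) and Hadhb (2.53) in the wild type. Besides Acaa1a and Idh3b, the members Acadvl (Dvl2), Etfdh (4930579G24Rik) and Pdha1 (Map3k15) overlap a counted gene on the opposite strand, whose reads cannot be told apart if strand was not used in counting. Merged exons include rare isoforms, which lowers the level of genes with long models.

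**Figure D4:**
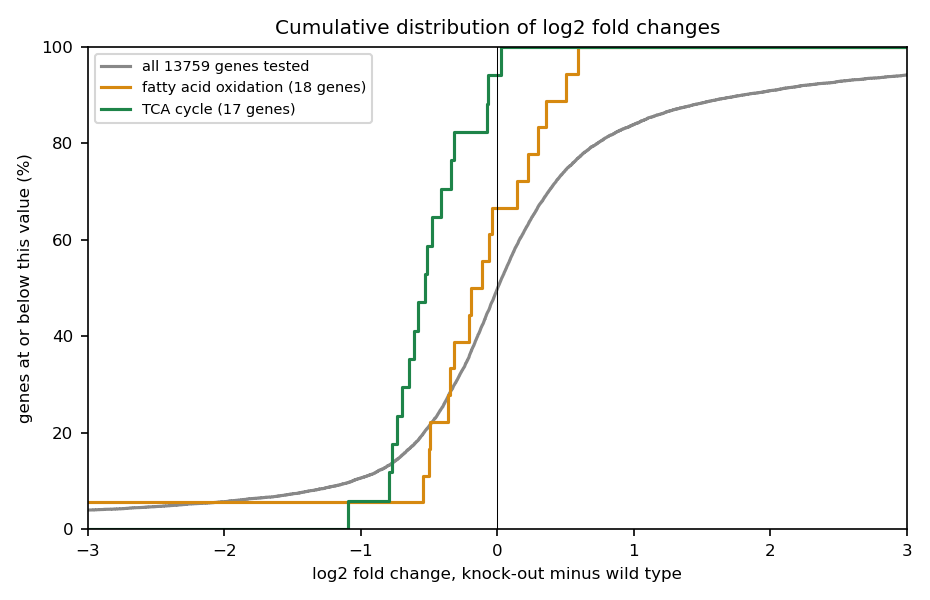
Share of genes (y, percent) at or below a log2 fold change (x, knock-out minus wild type), for all 13759 genes tested in grey, the 18 fatty acid oxidation genes in orange and the 17 TCA cycle genes in green. At 0 the green line has reached 94.1%, the orange line 66.7% and the grey line 49.8%, and neither pathway has a gene beyond 0.59 on the right.

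Some members lie on chromosomes that differed between the genotypes as a whole. Among genes whose mean reached 5 CPM, the median log2 fold change was 0.40 on chromosome 5 (685 genes), -0.09 on chromosome X (302 genes) and -0.03 on the other autosomes (9373 genes). Chromosome 5 carries Acads, Hadha, Hadhb and Mdh2, of which Acads rose, Hadhb fell and the others did not pass. The part of the chromosome-wide shift in their values was not tested. Chromosome X carries Pdha1 and Idh3g, which fell. Xist, made from the inactive X, was at 858 to 1483 CPM in the wild type and at most 0.0969 CPM in the knock-out, and the Y-linked Eif2s3y was counted in the knock-out only (76.6 to 83.4 CPM), so genotype and sex cannot be told apart. With chromosomes 5, X and Y and mitochondrially encoded genes left out, 12 of the remaining 14 TCA cycle genes were called lower, and 3 of the remaining 15 fatty acid oxidation genes were called higher and 6 lower. Over all genes in that fit, 7019 of 12347 tested were called, and 51.5% of these calls were higher in the knock-out.

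Most other genes around the TCA cycle were lower in the knock-out. Of 42 listed, 37 passed the filter on low counts. Of these 3 rose (8.11%, against 30.4% of all genes) and 24 fell (64.9%, against 27.0%), and their median log2 fold change was -0.44. The 6 with the smallest adjusted p were led by Me1, the cytosolic malic enzyme that makes NADPH, which rose 5.09-fold to 264 ± 12.2 CPM (adjusted p = 3.4e-10). Pdk1, a kinase that switches pyruvate dehydrogenase off, fell 4.05-fold, at 30.7, 28.8 and 31.9 CPM in the knock-out and 136, 92.0 and 141 CPM in the wild type (adjusted p = 1.8e-07). Pdp2, a phosphatase that switches it on, fell 2.06-fold (adjusted p = 1.5e-06). Mpc2, a subunit of the mitochondrial pyruvate carrier, fell 2.08-fold (adjusted p = 1.6e-06). Its partner Mpc1, chosen with its values in view, fell 4.24-fold (adjusted p = 5.7e-04). Mpc1 was low throughout, with 65 counts over the knock-out libraries and 238 over the wild-type libraries (0.721 ± 0.127 against 3.2 ± 1.08 CPM). Of succinate dehydrogenase, the cycle enzyme that is also respiratory complex II, Sdhd fell 2.17-fold (adjusted p = 4.8e-07) and Sdhc fell 1.78-fold (adjusted p = 4.2e-06). The others that rose, named after their values were seen, were Glud1, glutamate dehydrogenase (1.46-fold), and Ogdhl, a relative of Ogdh (2.39-fold). Csl, Me3, Pck1, Pdha2 and Pdk4 had too few counts to be tested.

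Of the other genes of fatty acid and ketone body use, 12 of 35 tested rose and 12 fell, 34.3% each, which is near the 30.4% and 27.0% of all genes (39 listed, median log2 fold change 0.11, the same with Slc27a2, which had no knock-out count, at its bound). Those with the smallest adjusted p included genes of ketone body metabolism. Bdh1, the dehydrogenase that interconverts the ketone bodies, fell 4.49-fold, at 39.2, 37.6 and 39.0 CPM in the knock-out and 167, 169 and 185 CPM in the wild type (adjusted p = 4.8e-10). Oxct1, which activates ketone bodies for oxidation, fell 2.28-fold, at 205, 210.2 and 204 CPM in the knock-out and 464, 457 and 488 CPM in the wild type (adjusted p = 2.1e-08). Of the acyl-CoA synthetases, which activate fatty acids, Acsl1 fell 3.69-fold (adjusted p = 2.4e-08) and Acsl3 fell 1.61-fold (adjusted p = 4.7e-06). Acaa1b, given above beside Acaa1a, rose. Of the peroxisomal genes on the list, chosen after their values were seen, the acyl-CoA oxidases Acox2 and Acox3 rose 2.33-fold and 1.86-fold, and Hsd17b4, the other peroxisomal bifunctional enzyme beside Ehhadh, rose 1.24-fold to 161 ± 4.38 CPM (adjusted p = 0.00249). Acsl6, Cpt1b and Eci3 had too few counts to be tested.

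**Figure D5:**
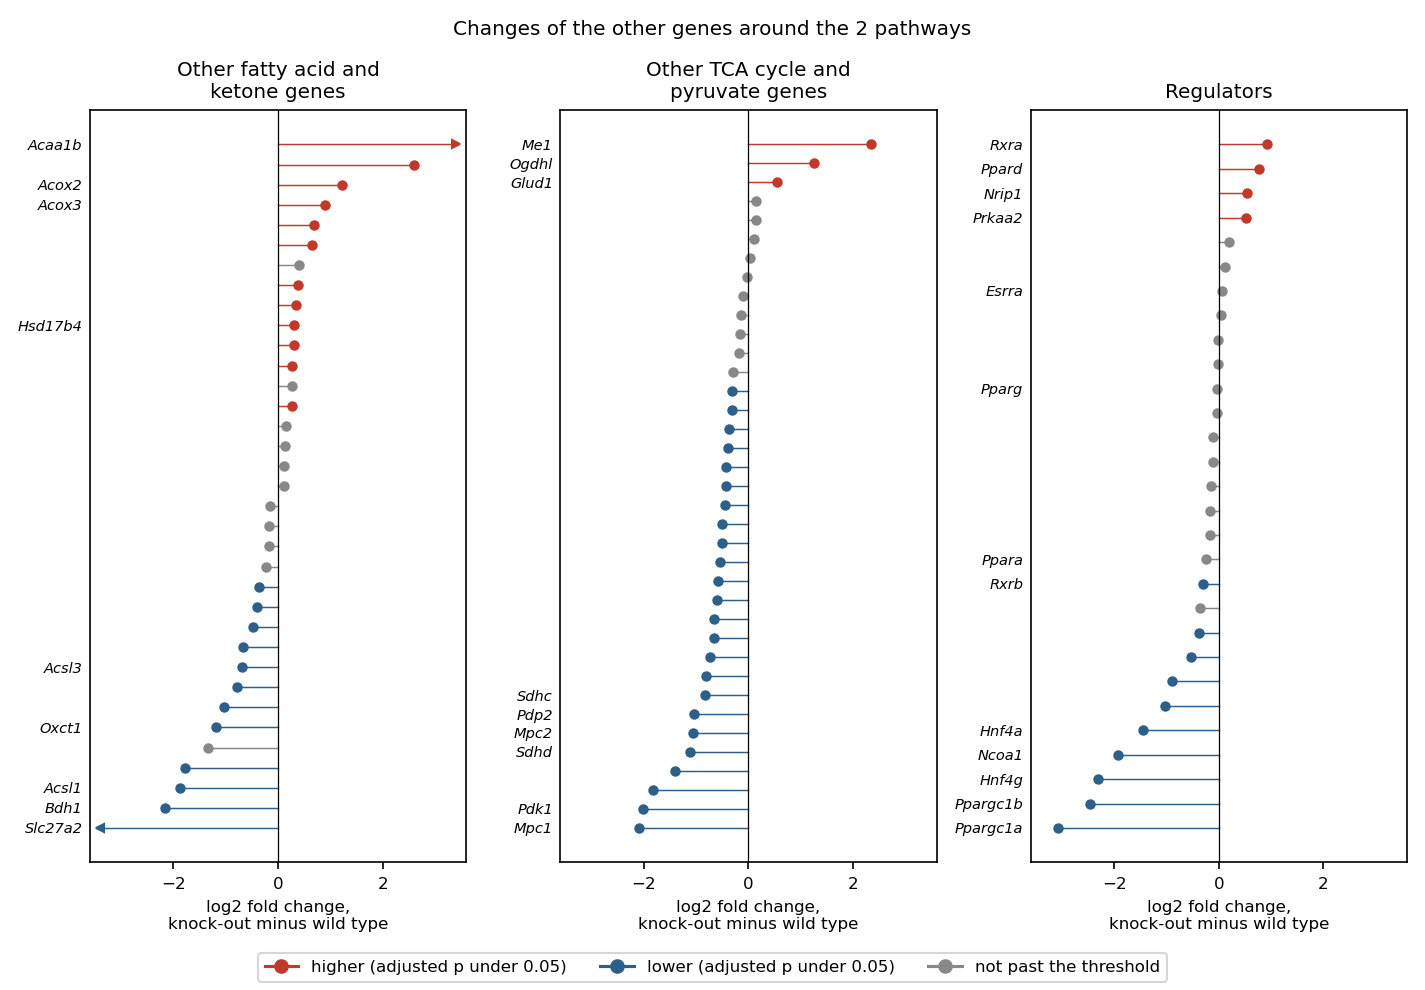
Log2 fold change (x, knock-out minus wild type) of each tested gene (y) on the lists of other fatty acid and ketone genes, other TCA cycle and pyruvate genes, and regulators, with red for called higher, blue for called lower and grey for neither. Arrowheads at the edge mark Acaa1b, the largest rise, and Slc27a2, which had no knock-out count. The genes named in the text, except Idh1, are labelled, and the other rows carry no name. The middle panel is mostly blue, with 24 falls and 3 rises.

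Among 31 regulators of oxidative genes, 29 were tested, 4 rose (13.8%, against 30.4% of all genes) and 10 fell (34.5%, against 27.0%). Their median log2 fold change was -0.16. Those with the smallest adjusted p fell. Ppargc1a, the coactivator PGC-1alpha, fell 8.41-fold, at 3.57, 2.43 and 4.23 CPM in the knock-out and 30.4, 29.5 and 27.3 CPM in the wild type (adjusted p = 1.7e-08), and its relative Ppargc1b fell 5.48-fold (adjusted p = 6.0e-07). Hnf4a, a nuclear receptor of gut and liver epithelium, fell 2.73-fold, at 186, 174 and 169 CPM in the knock-out and 478, 478 and 487 CPM in the wild type (adjusted p = 4.8e-09), and Hnf4g fell 4.96-fold (adjusted p = 1.9e-07). Ncoa1, a nuclear receptor coactivator, fell 3.79-fold (adjusted p = 8.4e-07). Knock-out and wild-type libraries did not overlap for any of these. The 4 that rose, named after their values were seen, were Rxra, the partner of the PPARs, 1.9-fold, Ppard 1.71-fold, Nrip1 1.46-fold and Prkaa2 1.43-fold. Rxrb, a relative of Rxra, fell 1.23-fold without overlap (adjusted p = 0.0179). Among receptors that did not pass, Pparg had 48.5 ± 3.09 against 49.5 ± 3.68 CPM (adjusted p = 0.82), Esrra had 138 ± 3.76 against 132 ± 3.9 CPM (adjusted p = 0.501), and Ppara was under 1 CPM in every library.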

How the data were processed

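Polyadenylated RNA of 6 tumoroid libraries was sequenced with a stranded protocol, per the labels' protocols. Reads were aligned with STAR to GRCm38, per the submitters' processing notes. Neither the STAR version nor the counter, strand setting and gene annotation used is given in the sources used here. The authors deposited raw counts for 49585 Ensembl identifiers per library. GENCODE M21 (GRCm38) named 49326 of them.

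Genotypes were compared in R 4.3.3 with edgeR 4.0.16 (quasi-likelihood test, legacy option off, no covariate), after TMM scaling and filterByExpr (minimum count 10, minimum total 15). P-values were adjusted over all 13759 genes by the Benjamini-Hochberg method with a threshold of 0.05. Standard errors and 95% intervals come from the fit's weights and quasi-likelihood dispersion. A level of 1 CPM was 20.7 to 31.9 counts before TMM scaling. No pair of libraries agreed within sampling noise. The script was tested on simulated data.

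Named genes are all 35 members, Chuk, near-identical copies of members, and the 6 genes with the smallest adjusted p per related list, of which a few are not reported here. Members and lists were chosen with earlier results of these data known. Alternatives were DESeq2 1.42.0 size factors, upper-quartile scaling or library size alone, no filter or 1 CPM in 3 libraries, the DESeq2 Wald test, limma 3.58.1 voom, a replicate block, an adjusted p of 0.01, leaving out chromosomes X, Y and 5 with the mitochondrial genome, and leaving out each library. The legacy edgeR fit was added after seeing the data.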

Additional observations from a re-analysis of the deposited data

How the results depend on the processing

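The 14 falls in the TCA cycle, and the 4 rises and 7 falls in fatty acid oxidation, were called in the same genes under each scaling, filter and tool, and with the replicate block or the legacy fit. At an adjusted p of 0.01 the Acaa2 call was lost. Leaving out each library gave 14 to 15 TCA cycle genes lower and 0 to 0 higher, 4 to 5 fatty acid oxidation genes higher and 6 to 9 lower, and 7077 to 8899 genes called in all. The medians ranged from -0.63 to -0.44 for the TCA cycle and from -0.22 to -0.08 for fatty acid oxidation. Of 589 values of single members under an alternative, 577 kept their direction and side of the threshold, and 4 turned sign, none of them past the threshold. These were Eci2 without wild-type replicate 1, and Mdh2 under upper-quartile scaling (-0.028) and without knock-out replicate 2 or wild-type replicate 1. Leaving out each library gave log2 fold changes of -0.152 to 0.0044 for Eci2 and of -0.083 to 0.083 for Mdh2. Deviations from the genotype mean correlated at 0.108, -0.110 and -0.190 between same-numbered libraries, for numbers 1, 2 and 3. Knock-out replicate 1 correlated best with its own number, and replicates 2 and 3 with another. No sign of pairing by number was seen, but 3 libraries per genotype can hardly show it. With the replicate block 7432 genes were called against 7896, among them 14 TCA cycle genes lower. Ehhadh in the knock-out, at 6 counts in all, is the member whose size depth limits.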
